A study of Arabidopsis thaliana with 6 samples.

Results

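miR160, miR167 and miR393 are 3 miRNA families of Arabidopsis thaliana whose targets act in the auxin pathway. They were taken from a table of 349 mature miRNA sequences as every entry whose name holds ath-miR160, ath-miR167 or ath-miR393. This rule reads names and no measured value, although the families were proposed with earlier results of these data known. This gave 11 of the 349 entries, of which 3 belong to miR160, 5 to miR167 and 3 to miR393. Small RNA had been sequenced from leaves of rosettes that had grown in soil for 3 weeks, with 2 biological replicates of each genotype. The genotypes were hyl1-2, a mutant of HYPONASTIC LEAVES 1 (HYL1), snrk2.2/3/6, a triple mutant of the kinases SnRK2.2, SnRK2.3 and SnRK2.6, and the wild type (WT, Col). Age, tissue and growth in soil were common to the 3 genotypes, and the labels name no treatment. The libraries hold whole leaf tissue, so fewer cells of a type and less of a miRNA per cell cannot be told apart. The study describes the leaves of snrk2.2/3/6 as smaller than those of WT, with serrated margins when older. The mRNAs of HYL1, of the kinases and of the miRNA targets are not part of small RNA libraries, so neither the mutations nor the targets could be read from these data.

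Auxin binds the F-box receptors TIR1 and AFB1 to AFB3, which send Aux/IAA repressors to degradation and thereby release the AUXIN RESPONSE FACTOR (ARF) transcription factors. miR393 guides cleavage of the receptor mRNAs, miR167 acts on the activators ARF6 and ARF8 and on IAR3, an enzyme that releases auxin from a conjugate, and miR160 acts on the repressors ARF10, ARF16 and ARF17. In leaves these pairs are known for their part in blade shape, margin serration and the response to auxin. A plant miRNA is cut from a hairpin precursor by DICER-LIKE 1, with HYL1 as the double-stranded RNA-binding partner, as a duplex of a 5p and a 3p strand, and usually 1 strand is kept in ARGONAUTE. SnRK2.2, SnRK2.3 and SnRK2.6 are kinases of abscisic acid and osmotic stress signaling. The comparison of each mutant with WT asked how far the loss of HYL1 or of the kinases went with a change of miRNA levels.

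The mature sequences on which the results turn are given here as deposited, 5′ to 3′ in DNA letters, with the seed (bases 2 to 8) in capitals. They are placed by family, with sequences of the same seed next to each other.
miR160a-5p/b/c-5p: tGCCTGGCtccctgtatgcca
miR167a-5p/b: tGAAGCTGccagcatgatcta
miR167d: tGAAGCTGccagcatgatctgg
miR167c-5p: tAAGCTGCcagcatgatcttg
miR167a-3p: gATCATGTtcgcagtttcacc
miR393a-5p/b-5p: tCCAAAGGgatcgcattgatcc
miR393b-3p: aTCATGCGatctctttggatt
miR393a-3p: aTCATGCTatctctttggatt

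miR167a-5p/b and miR167d share their seed, which no other entry of the table has. Counted from 1 at the 5′ end of miR167d, they differ by G21A, with miR167d named first, and miR167d carries 1 further base, which makes it 22 nt long. The 3p strands of miR393a and miR393b differ by T8G, counted in the same way with miR393a-3p named first, so that their seeds differ in the last base. Both 5p strands of miR393 are 1 sequence of 22 nt, and reads of its MIR393a and MIR393b copies cannot be told apart. The same holds for the 3 copies of miR160-5p and for miR167a-5p and miR167b. Each sequence had exact matches in TAIR10.1, the build whose RefSeq annotation was used, only inside MIR genes of its own family, and no other annotated gene overlapped these places. miR160-5p was found on chromosome 2 at 16340282 to 16340302 (MIR160a), on chromosome 4 at 9888986 to 9889006 (MIR160b) and on chromosome 5 at 19009158 to 19009178 (MIR160c). miR167a-5p/b lay on chromosome 3 at 8108090 to 8108110 (MIR167a) and at 23406177 to 23406197 (MIR167b), and miR167d on chromosome 1 at 11137556 to 11137577 (MIR167d). miR393b-3p lay on chromosome 3 at 20691778 to 20691798 (MIR393b), and miR393a-3p on chromosome 2 at 16652205 to 16652225 (MIR393a).

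To show what these strands can pair with, 1 site per family is given from the TAIR10.1 transcripts, 5′ to 3′, with capitals at the bases that form no Watson-Crick pair with the miRNA.
ARF17, paired with miR160a-5p/b/c-5p: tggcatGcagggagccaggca
ARF8, paired with miR167a-5p/b: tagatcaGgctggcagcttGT
TIR1, paired with miR393a-5p/b-5p: gAGAcaatgcgatccctttgga

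The ARF17 site has 1 G:U pair and no mismatch, the ARF8 site 3 mismatches, and the TIR1 site 2 mismatches and 1 G:U pair. All 3 lie in coding exons, ARF17 on chromosome 1 at 29274189 to 29274209, ARF8 on chromosome 5 at 14633841 to 14633861 and TIR1 on chromosome 3 at 23273727 to 23273748. The best ungapped sites in ARF10, ARF16, ARF6, IAR3 and AFB1 to AFB3 had from 2 to 6 bases without a Watson-Crick pair, and all lay in coding sequence. These are matches of letters, and no binding or cleavage was measured.

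The libraries held 16041013 to 19601046 genome-matched small RNA reads, of which 6670 to 34567 were identical to a mature miRNA. Values are given as reads and as RPTM, the reads per 10000000 genome-matched reads of the library as deposited. At these depths 3 reads, taken as the floor, were 1.53 to 1.87 RPTM, and floors and intervals cover counting error only. All mature miRNAs together stood at 18.3% and 18.2% of the WT mean in hyl1-2, and at 86.3% in replicate 1 and 32.5% in replicate 2 of snrk2.2/3/6. The snrk2.2/3/6 libraries thus stand apart from each other, with replicate 1 above replicate 2 for 57 of the 59 sequences that were tested, so results on this mutant are also given without a library where that turns a sign, ends or makes a call, or moves the value by over 1.5 times. The test was edgeR's quasi-likelihood test, run across the 59 sequences that averaged 10 reads or more per library, with genome-matched totals as library sizes, and a log2 fold change is therefore relative to all small RNAs of the library. Scaling to the miRNA reads themselves gives a level relative to other miRNAs. It moved the median log2 fold change of the 59 sequences up by 2.74 in hyl1-2 against WT, by 0.79 in snrk2.2/3/6 against WT and by 1.94 in hyl1-2 against snrk2.2/3/6 with TMM factors, and by 2.48, 0.72 and 1.64 in the same order of comparisons with total miRNA reads as library size.

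Of the 11 sequences, 10 had at least 1 read and 5 passed this filter on low counts. miR167c-5p was at 0 reads in all 6 libraries. In WT, miR167a-5p/b was the most abundant at 171 ± 6.12 RPTM (SD, n = 2), followed by miR393b-3p at 72.3 ± 5.36, miR160a-5p/b/c-5p at 38.3 ± 9.01, miR167d at 25.4 ± 1.24 and miR167a-3p at 11.9 ± 4.74 RPTM. The WT libraries of neighbours in this order did not overlap. Among the 349 entries these 5 ranked 16, 22, 29, 34 and 52 by mean RPTM in WT. In hyl1-2, miR393b-3p was the most abundant of the 11, at 84.0 ± 6.68 RPTM and rank 9, ahead of miR167a-5p/b at 46.8 ± 0.595 RPTM and rank 11 (SD, n = 2 each). There the libraries of miR160a-5p/b/c-5p and miR167d overlapped. In snrk2.2/3/6, miR167a-5p/b came first at 222 ± 110 RPTM and rank 9, and its libraries overlapped those of miR393b-3p, at 92.2 ± 88.1 RPTM and rank 16 (SD, n = 2 each). The 11 sequences held 4.36% and 3.75% of the miRNA reads in hyl1-2, 3.01% and 3.28% in snrk2.2/3/6, and 1.59% and 1.67% in WT.

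**Figure D1:**
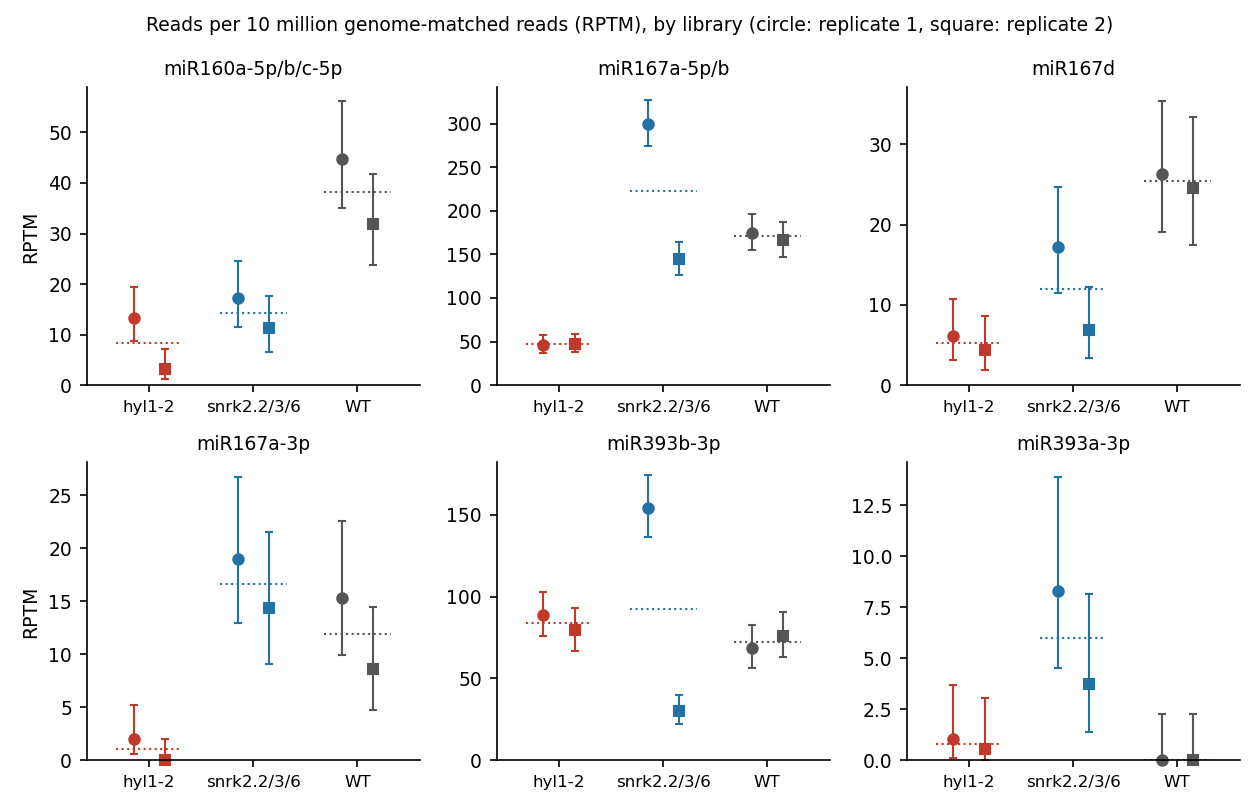
Reads per 10000000 genome-matched reads (RPTM, linear axes from 0) of the 5 tested sequences and of miR393a-3p in each library, with hyl1-2 on the left, snrk2.2/3/6 in the middle and WT on the right. Circles are replicate 1, squares replicate 2, bars 95% counting intervals and dotted lines group means. miR393b-3p lay between 79.3 and 88.8 RPTM in hyl1-2, above both WT libraries, while the other 4 tested sequences were below both WT libraries in hyl1-2.

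miR393b-3p, the strand opposite to the receptor-targeting miR393-5p, was the 1 tested sequence of the 3 families that was not below WT in hyl1-2. It had 174 and 146 reads, or 88.8 and 79.3 RPTM, in the hyl1-2 libraries, 261 and 48 reads, or 155 and 29.9 RPTM, in snrk2.2/3/6, and 112 and 124 reads, or 68.5 and 76.1 RPTM, in WT. Both hyl1-2 libraries were above both WT libraries, an order seen for 3.39% of the 59 tested sequences, whereas the snrk2.2/3/6 libraries lay on either side of WT. The log2 fold change in hyl1-2 against WT was 0.22 with a standard error of 0.96 and a 95% interval of -1.67 to 2.11, and the adjusted p by edgeR was 0.849. This interval leaves room for a fall as well as a rise. Among the 59 tested sequences, whose median log2 fold change in hyl1-2 was -2.62, it had the fourth highest value. Relative to other miRNAs it was higher in hyl1-2 than in WT, by log2 fold changes of 2.98 (adjusted p = 4.31e-05, edgeR with TMM factors) or 2.66 (adjusted p = 9.36e-05, edgeR with total miRNA reads), and both hyl1-2 libraries showed this direction. In snrk2.2/3/6 against WT its log2 fold change was 0.35 (SE 0.96, adjusted p = 0.855 by edgeR). That value hung on 1 library. Without snrk2.2/3/6 replicate 1 it was -1.27, where the median of all 59 tested sequences was -1.75. Without replicate 2 it was 1.10, where that median was -0.22. Between the mutants, hyl1-2 against snrk2.2/3/6, the log2 fold change was -0.13 (SE 0.95, adjusted p = 0.920 by edgeR). It turned to 2.00 (adjusted p = 0.00243) with TMM factors and to 1.74 (adjusted p = 0.00330) with total miRNA reads in edgeR. Without snrk2.2/3/6 replicate 1 it turned to 1.49, where the median of all 59 was -0.76.

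miR167a-5p/b, the strand that pairs with ARF6 and ARF8, was low in hyl1-2 and spread widely in snrk2.2/3/6. It had 91 and 87 reads, or 46.4 and 47.3 RPTM, in hyl1-2, 506 and 232 reads, or 299.5 and 145 RPTM, in snrk2.2/3/6, and 286 and 271 reads, or 175 and 166 RPTM, in WT. Both hyl1-2 libraries were below all others, while snrk2.2/3/6 replicate 1 was above and replicate 2 below both WT libraries. The mean in hyl1-2 was 27.5% of the WT mean. The log2 fold change in hyl1-2 against WT was -1.86 (SE 0.98), which did not pass the threshold in edgeR (adjusted p = 0.0746). The same difference passed it with DESeq2 (adjusted p = 0.00732), with limma on log2(RPTM + 1) (adjusted p = 0.0236), and with edgeR fitted to hyl1-2 and WT alone (adjusted p = 0.00215). Adding the replicate number as a block in edgeR left the difference above the threshold (adjusted p = 0.0538). Without a filter on low counts the difference also missed it (adjusted p = 0.0789, edgeR). With 1 library left out in turn, the log2 fold change stayed between -1.90 and -1.83. Whether the difference passed in edgeR then changed with the library left out. In snrk2.2/3/6 against WT the log2 fold change was 0.38 (SE 0.94, adjusted p = 0.855 by edgeR). It was -0.24 without replicate 1 of the mutant and 0.81 without replicate 2. Relative to other miRNAs miR167a-5p/b was higher in snrk2.2/3/6 than in WT, by a log2 fold change of 1.29 (adjusted p = 0.0492, edgeR with TMM factors) or 1.21 (adjusted p = 0.0218, edgeR with total miRNA reads). In hyl1-2 against WT the sign turned under those scalings, to 0.89 and 0.59. In hyl1-2 against snrk2.2/3/6 it was -2.24 (SE 0.99, adjusted p = 0.0515 by edgeR). This difference passed the threshold with DESeq2 (adjusted p = 0.00261) and limma (adjusted p = 0.0157). It also passed in edgeR with the replicate number as a block (adjusted p = 0.0427). The value was -1.62 without snrk2.2/3/6 replicate 1 and -2.67 without replicate 2. Whether the difference passed in edgeR changed with the library left out. The difference missed the threshold without a filter on low counts (adjusted p = 0.117, edgeR). It missed the threshold in edgeR fitted to those genotypes alone (adjusted p = 0.142), with TMM factors (-0.41, adjusted p = 0.501) and with total miRNA reads (-0.62, adjusted p = 0.149).

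miR167d, which has the same seed, fell in hyl1-2. It had 12 and 8 reads, or 6.12 and 4.35 RPTM, in hyl1-2, 29 and 11 reads, or 17.2 and 6.86 RPTM, in snrk2.2/3/6, and 43 and 40 reads, or 26.3 and 24.5 RPTM, in WT. The libraries of both mutants were below both WT libraries. The log2 fold change in hyl1-2 against WT was -2.26 (SE 0.92, adjusted p = 0.0236 by edgeR), close to the median of -2.62 over all tested sequences, and relative to other miRNAs it turned to 0.49 with TMM factors and 0.17 with total miRNA reads. The call was lost without hyl1-2 replicate 1 or 2 (adjusted p = 0.0736 and 0.133, edgeR) and without WT replicate 1 or 2 (adjusted p = 0.145 and 0.118, edgeR), where the lone library is assumed to vary like the other genotypes. The log2 fold change in snrk2.2/3/6 against WT was -1.07 (SE 0.87, adjusted p = 0.465 by edgeR), and -1.88 without snrk2.2/3/6 replicate 1 and -0.56 without replicate 2. In hyl1-2 against snrk2.2/3/6 it was -1.19 (SE 0.92, adjusted p = 0.2996 by edgeR), and -0.38 without snrk2.2/3/6 replicate 1, and it turned to 0.73 with TMM factors and 0.49 with total miRNA reads.

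miR167d and miR167a-5p/b can be compared within a library, where the share of one does not depend on the library size. This share was chosen after the counts were seen. miR167d made up 11.7% (95% Wilson interval 6.79% to 19.3%) and 8.42% (4.33% to 15.7%) of the reads of both sequences in hyl1-2, 5.42% (3.80% to 7.68%) and 4.53% (2.55% to 7.92%) in snrk2.2/3/6, and 13.1% (9.85% to 17.1%) and 12.9% (9.59% to 17.0%) in WT. The snrk2.2/3/6 libraries both lay below those of WT, and their counting intervals did not reach those of WT. The mean difference, snrk2.2/3/6 minus WT, was -7.99 percentage points (exact permutation test, two-sided p = 0.333, the smallest that 2 libraries against 2 can give). The share rests on 29 and 11 reads of miR167d in snrk2.2/3/6, whose libraries differed widely in total miRNA reads. The cause of the low share was not tested.

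miR167a-3p, the strand opposite to miR167a-5p, fell in hyl1-2 against both other genotypes. It had 4 and 0 reads, or 2.04 and 0 RPTM, in hyl1-2, 32 and 23 reads, or 18.9 and 14.3 RPTM, in snrk2.2/3/6, and 25 and 14 reads, or 15.3 and 8.59 RPTM, in WT. The hyl1-2 libraries were near or under the floor and below all others, and those of snrk2.2/3/6 and WT overlapped. The log2 fold change was -3.43 in hyl1-2 against WT (SE 1.14, adjusted p = 0.00799 by edgeR) and -3.91 in hyl1-2 against snrk2.2/3/6 (SE 1.14, adjusted p = 0.00410 by edgeR). Both fitted values rest partly on the library at 0, and without hyl1-2 replicate 2 they were -2.51 (adjusted p = 0.111, edgeR) and -2.98 (adjusted p = 0.103, edgeR). Without hyl1-2 replicate 1, where the library at 0 stands alone, they were -7.34 and -7.81, sizes that depend on the prior count and are no bound. The call against WT was also lost without WT replicate 1 (adjusted p = 0.116, edgeR) and the call against snrk2.2/3/6 without its replicate 1 (adjusted p = 0.0540, edgeR). Relative to other miRNAs the log2 fold change against WT kept its sign, at -0.70 with TMM factors and -1.03 with total miRNA reads, but missed the threshold (adjusted p = 0.604 and 0.477, edgeR), and against snrk2.2/3/6 it was -2.21 (adjusted p = 0.0767) and -2.43 (adjusted p = 0.0496) by edgeR. Against WT, snrk2.2/3/6 was at 0.48 (SE 0.92, adjusted p = 0.824 by edgeR), and at 0.26 without its replicate 1.

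miR160a-5p/b/c-5p, the strand that pairs with ARF10, ARF16 and ARF17, fell in hyl1-2. It had 26 and 6 reads, or 13.3 and 3.26 RPTM, in hyl1-2, 29 and 18 reads, or 17.2 and 11.2 RPTM, in snrk2.2/3/6, and 73 and 52 reads, or 44.6 and 31.9 RPTM, in WT. All 4 mutant libraries were below both WT libraries, and those of the mutants overlapped. The means in hyl1-2 and snrk2.2/3/6 were 21.6% and 37.1% of the WT mean. The log2 fold change in hyl1-2 against WT was -2.20 (SE 0.89, adjusted p = 0.0236 by edgeR), and relative to other miRNAs it turned to 0.68 with TMM factors and 0.26 with total miRNA reads. It was -3.52 without hyl1-2 replicate 1 (adjusted p = 0.0292, edgeR). The call was lost without hyl1-2 replicate 2 (-1.52, adjusted p = 0.241, edgeR), without WT replicate 1 (adjusted p = 0.168, edgeR) and without WT replicate 2 (adjusted p = 0.0870, edgeR). For snrk2.2/3/6 against WT the log2 fold change was -1.43 (SE 0.87, adjusted p = 0.377 by edgeR), and in hyl1-2 against snrk2.2/3/6 -0.77 (SE 0.89, adjusted p = 0.486 by edgeR), which was -0.43 without snrk2.2/3/6 replicate 1 and turned to 1.13 with TMM factors and 0.80 with total miRNA reads.

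In hyl1-2 against WT, 3 of the 5 tested sequences were thus lower at an adjusted p under 0.05 by edgeR, where 67.8% of all 59 tested sequences were, and 0 were higher, where 1.69% were. At an unadjusted p under 0.05 the counts of the 5 were again 3 and 0, against 74.6% and 1.69% of all tested. DESeq2 and limma each called 4 lower and 0 higher, against 76.3% and 1.69% of all tested with either tool. By order alone, both hyl1-2 libraries were below both WT libraries for 4 of the 5, against 88.1% of all tested, and above them for 1. The median log2 fold change of the 5 was -2.20 and that of all 59 was -2.62. With edgeR in snrk2.2/3/6 against WT, 0 of the 5 were lower and 0 were higher, against 3.39% and 0.0% of all tested, and at an unadjusted p under 0.05 the counts of the 5 were also 0 and 0, against 16.9% and 0.0%. DESeq2 and limma called 0 of the 5 in either direction, against 6.78% of all tested lower with DESeq2 and 10.2% with limma, and 0.0% higher with both. By order, the snrk2.2/3/6 libraries lay under those of WT for 2 of the 5, miR160a-5p/b/c-5p and miR167d, against 52.5% of all tested, and above them for 0, against 5.08%. The median of the 5 was 0.35 and that of all 59 was -0.72. In hyl1-2 against snrk2.2/3/6, 1 of the 5 was lower and 0 were higher by edgeR, against 45.8% and 0.0% of all tested, and 2 lower and 0 higher at an unadjusted p under 0.05, against 54.2% and 1.69%. DESeq2 and limma each called 2 lower and 0 higher, against 55.9% of all tested lower with DESeq2 and 49.2% with limma, and 1.69% higher with both. By order, 3 of the 5 were lower in both hyl1-2 libraries, against 66.1% of all tested, and 0 higher, against 1.69%. Relative to other miRNAs, the counts by edgeR with TMM factors were 0 lower and 1 higher of the 5 in hyl1-2 against WT (25.4% and 16.9% of all tested), 0 and 1 in snrk2.2/3/6 against WT (6.78% and 6.78%), and 0 and 1 in hyl1-2 against snrk2.2/3/6 (13.6% and 16.9%). With total miRNA reads as library size they were 0 and 1 (28.8% and 13.6%), 0 and 1 (6.78% and 6.78%), and 1 and 1 (22.0% and 16.9%). The 3 comparisons share libraries and are not independent of each other.

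**Figure D2:**
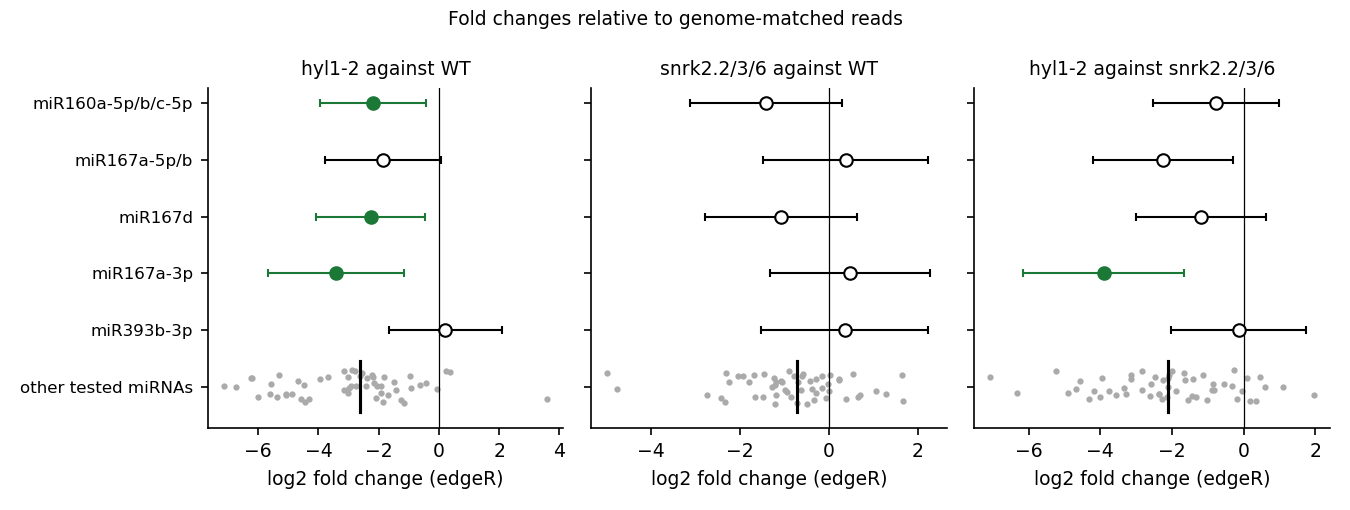
Log2 fold changes (horizontal axes, edgeR, genome-matched totals as library sizes) of the 5 tested sequences, with 95% intervals, in hyl1-2 against WT, snrk2.2/3/6 against WT and hyl1-2 against snrk2.2/3/6. Filled green points passed an adjusted p of 0.05 and open points did not, grey dots are the other tested miRNAs and the black bar marks the median of all 59. In hyl1-2 against WT, miR393b-3p is at 0.22 while the median of all tested sequences is at -2.62.

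Summed over all entries of a family, the 3 families took different places in the mutants. The miR160 family stood at 20.95% of its WT mean in hyl1-2 and 35.6% in snrk2.2/3/6, miR167 at 25.6% and 120%, and miR393 at 115% and 134%. The mean of snrk2.2/3/6 covers unlike libraries, since replicates 1 and 2 were at 42.2% and 29.1% of WT for miR160, at 160% and 79.6% for miR167 and at 221% and 46.3% for miR393. Of the 3, only miR160 was below both WT libraries in both replicates of that mutant. How many of all tested families had this order was not counted, and 52.5% of the 59 tested sequences had it. Counts summed by miRNA number were tested in the same way over the 39 families that averaged 10 reads or more. In hyl1-2 against WT the log2 fold change was -2.24 for miR160 (SE 0.92, adjusted p = 0.0231), -1.96 for miR167 (SE 0.94, adjusted p = 0.0504) and 0.20 for miR393 (SE 0.89, adjusted p = 0.868) by edgeR. One of the 3 families, miR160, was therefore called lower and 0 were called higher, against 71.8% and 2.56% of all tested families. The value of miR160 was -3.40 without hyl1-2 replicate 1, and its call was lost without hyl1-2 replicate 2 (adjusted p = 0.211, edgeR), WT replicate 1 (adjusted p = 0.188, edgeR) or WT replicate 2 (adjusted p = 0.0914, edgeR), and miR167 was called by DESeq2 (adjusted p = 0.00242) and limma (adjusted p = 0.0192). In snrk2.2/3/6 against WT no family was called by edgeR, against 2.56% of all families lower and 0.0% higher, and at an unadjusted p under 0.05 the count of the 3 was 0 in either direction, against 17.9% lower and 0.0% higher. DESeq2 and limma also called 0 of the 3 in either direction, against 7.69% of all families lower with DESeq2 and 12.8% with limma, and 0.0% higher with both. The log2 fold changes were -1.48 (SE 0.89, adjusted p = 0.2997) for miR160, 0.26 (SE 0.90, adjusted p = 0.940) for miR167 and 0.42 (SE 0.89, adjusted p = 0.829) for miR393 by edgeR. Without snrk2.2/3/6 replicate 1 those of miR167 and miR393 turned to -0.33 and -1.11, and without replicate 2 they were 0.68 and 1.14. In hyl1-2 against snrk2.2/3/6 miR167 was lower, by -2.23 (SE 0.95, adjusted p = 0.0442, edgeR), against 46.2% of all families lower. This call was lost in edgeR without hyl1-2 replicate 1 or 2 (adjusted p = 0.301 and 0.319) and without WT replicate 1 or 2 (adjusted p = 0.169 and 0.158). In the same comparison miR160 was at -0.76 (adjusted p = 0.515) and miR393 at -0.22 (adjusted p = 0.871) by edgeR. The value of miR160 there was -0.46 without snrk2.2/3/6 replicate 1. Relative to other miRNAs in hyl1-2 against WT, the miR393 total was higher, by 2.73 with TMM factors (adjusted p = 0.00144, edgeR) and 2.64 with total miRNA reads (adjusted p = 6.59e-07, edgeR), while those of miR160 (0.34 and 0.22) and miR167 (0.57 and 0.49) turned positive without passing the threshold. Under the same scalings the miR167 total was higher in snrk2.2/3/6 than in WT, by 1.22 (adjusted p = 0.0485, edgeR) and 1.10 (adjusted p = 0.0217, edgeR), and its call in hyl1-2 against snrk2.2/3/6 was lost, at -0.64 and -0.61. The miR393 total turned there to 1.63 (adjusted p = 0.0264, edgeR) and 1.64 (adjusted p = 0.00145, edgeR), both past the threshold. Without snrk2.2/3/6 replicate 1 it was 1.31. How many of all tested families were called with TMM factors or total miRNA reads was not counted in any comparison.

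Set against all miRNA reads of a library, the families kept a different order. miR393 made up 2.48% and 2.204% of the miRNA reads in hyl1-2, 0.955% and 0.530% in snrk2.2/3/6, and 0.333% and 0.417% in WT. The libraries of the 3 genotypes did not overlap. miR167 made up 1.51% and 1.44% in hyl1-2, 1.95% and 2.57% in snrk2.2/3/6, and 1.03% and 1.07% in WT, again without overlap. How many of all tested families were without overlap on this scale was not counted. miR160 made up 0.364% and 0.105% in hyl1-2, 0.09995% and 0.183% in snrk2.2/3/6, and 0.226% and 0.181% in WT, and its libraries overlapped between genotypes.

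**Figure D3:**
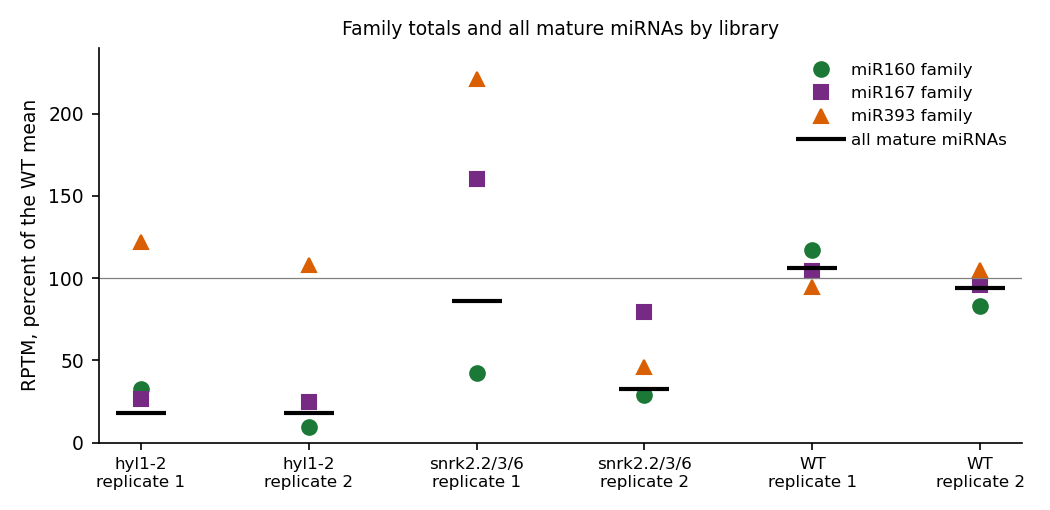
RPTM summed over each family as percent of its WT mean (vertical axis, linear from 0) in each of the 6 libraries, with hyl1-2 on the left, then snrk2.2/3/6 and WT. Symbols stand for the miR160, miR167 and miR393 families, black dashes for all mature miRNAs together and the grey line for 100%. In hyl1-2 the dashes are at 18.3% and 18.2% while miR393 is at 122% and 108%.

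The duplex strands were read in unlike proportion. Among the annotated sequences, the 5p strand, which pairs with the targets shown, held nearly all counted reads of miR160 and miR167 and few of miR393. Its share of the miR160 reads was 92.9% ± 10.1 in hyl1-2, 97.4% ± 3.72 in snrk2.2/3/6 and 94.1% ± 0.676 in WT (SD, n = 2 each). For miR167 it was 97.2% ± 2.54 in hyl1-2, 92.7% ± 2.37 in snrk2.2/3/6 and 93.8% ± 2.29 in WT (SD, n = 2 each). For miR393 it was 0.282% ± 0.399 in hyl1-2, 1.27% ± 0.775 in snrk2.2/3/6 and 2.49% ± 0.174 in WT (SD, n = 2 each). These miR393 shares rest on 1 and 0 reads of 177 and 147 in hyl1-2, on 2 and 1 of 277 and 55 in snrk2.2/3/6, and on 3 and 3 of 115 and 127 in WT. For the 0 reads of hyl1-2 replicate 2 the Wilson upper limit was 2.55%, and the floor of 3 reads would be a share of 2.04%. The Wilson intervals of the genotypes overlapped. The most abundant miR393 sequence was thus not the strand known to pair with TIR1 and its relatives, in any of the 6 libraries. Only reads identical to the annotated mature sequence were counted, so strands of another length or with shifted ends are not in these numbers. The entries hold no 3p sequence of MIR160b, MIR167b or MIR167d, although their 5p reads are counted. Both MIR393 genes have a 3p entry. The 5p shares of miR160 and miR167 may thus be too high, and the families cannot be compared directly in strand use.

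**Figure D4:**
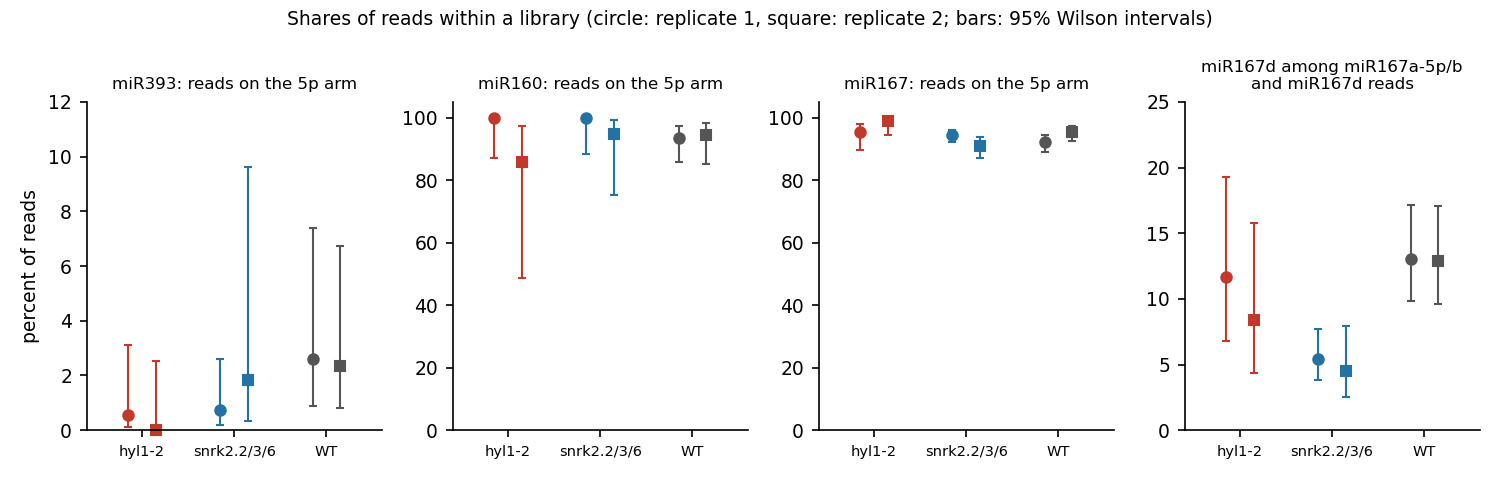
Percent of reads on the 5p strand within miR393, miR160 and miR167, and percent of miR167d among the reads of miR167a-5p/b and miR167d (linear axes from 0, with separate ranges), in each library. Groups run from hyl1-2 on the left over snrk2.2/3/6 to WT, circles are replicate 1, squares replicate 2 and bars 95% Wilson intervals. miR167d is at 5.42% and 4.53% in snrk2.2/3/6 and at 13.1% and 12.9% in WT, while miR393 reads on the 5p strand stay under 3% in every library.

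With 2 libraries per genotype an exact permutation test cannot go below a two-sided p of 0.333. Over 18 such comparisons of shares within a library, 6 shares in each of 3 pairs of genotypes, the smallest value adjusted by the Benjamini-Hochberg method was 0.462 (exact permutation test). No share could therefore be called different between genotypes. The share of miR167a-3p among the reads of miR167a-5p/b and miR167a-3p was 4.21% and 0% in hyl1-2, 5.95% and 9.02% in snrk2.2/3/6, and 8.04% and 4.91% in WT. For its 0 of 87 reads in hyl1-2 replicate 2 the Wilson upper limit was 4.23%, and the floor of 3 reads would be a share of 3.45%.

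Of the 5 sequences with too few reads to be tested, miR393a-3p alone had no read in WT. How many of all sequences with few reads had this pattern was not counted. It had 2 and 1 reads in hyl1-2, 14 and 6 in snrk2.2/3/6, and 0 in both WT libraries. Its mean of 6.01 RPTM in snrk2.2/3/6 was 3.27-fold the floor of 3 reads in each WT library. Replicate 1 and replicate 2 alone were 4.51-fold and 2.04-fold that floor, while hyl1-2 was under it and allows no fold. These folds leave out the counting error of the snrk2.2/3/6 reads and are no lower bounds. The 95% counting intervals were 4.53 to 13.9 RPTM in replicate 1 and 1.37 to 8.14 RPTM in replicate 2. That of replicate 2 overlapped those of WT, which reached 2.26 RPTM. miR393a-3p made up 5.09% (95% Wilson interval 3.06% to 8.36%) and 11.1% (5.19% to 22.2%) of the miR393-3p reads in snrk2.2/3/6, and 1.14% and 0.680% in hyl1-2. In WT it made up 0 of 112 and 0 of 124, with Wilson upper limits of 3.32% and 3.00%. The interval of snrk2.2/3/6 replicate 1 thus overlapped that of WT replicate 1. Without a filter on low counts the unadjusted p by edgeR in snrk2.2/3/6 against WT was 0.00801 and the adjusted p was 0.402. The other 4 had at most 3 reads in any library. miR393a-5p/b-5p, the strand that pairs with the receptors, had 1 and 0 reads in hyl1-2, 2 and 1 in snrk2.2/3/6, and 3 and 3 in WT. miR160c-3p had 0 and 1, 0 and 1, and 3 and 2 reads in hyl1-2, snrk2.2/3/6 and WT. miR160a-3p was read in WT alone, with 2 and 1 reads, and miR167c-3p had 1 and 1, 0 and 1, and 3 and 1 reads in the same genotypes. Without a filter on low counts, none of these 4 passed the adjusted threshold in edgeR in any comparison. The lowest adjusted p by edgeR was 0.133, for miR393a-5p/b-5p in hyl1-2 against WT (log2 fold change -2.51, unadjusted p = 0.0498). At these counts a difference can be missed.

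The miRNAs whose 6 values were most like those of the leading sequence of each family were found by the root mean square difference of log2(RPTM + 1), each taken relative to WT, over the 59 tested sequences and 6 libraries. The distance counts library depth and the shared fall of miRNAs in a library as likeness, and it is a description. Nearest to miR160a-5p/b/c-5p were miR166a-3p with its copies (0.253), miR170-5p/miR171a-5p (0.501) and miR390a-5p/miR390b-5p (0.525), where the median over all tested sequences was 1.14. Nearest to miR167a-5p/b were miR398b-3p/miR398c-3p (0.282), miR163 (0.455) and miR395b/miR395c/miR395f (0.475), with a median of 1.11. Nearest to miR393b-3p were miR5026 (0.351), miR408-5p (0.593) and miR822-5p (0.641), with a median of 1.83. miR5026 had 736 and 999 RPTM in hyl1-2, 1311 and 331 RPTM in snrk2.2/3/6, and 806 and 1026 RPTM in WT. Like miR393b-3p it was far higher in replicate 1 than in replicate 2 of snrk2.2/3/6. Most miRNAs shared that order, with replicate 1 above for 57 of the 59 tested sequences and a median log2 difference of 1.44.

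Other miRNAs of auxin-related pathways were taken from a fixed list of miR390, which starts the TAS3 tasiRNAs against ARF genes, miR164, which acts on NAC1, and miR847, which acts on IAA28. Their 8 entries held 2 with enough reads to be tested, and 0 of these 2 were called by edgeR in hyl1-2 (67.8% of all tested lower) or snrk2.2/3/6 (3.39% of all tested lower) against WT. At an unadjusted p under 0.05 in edgeR, with DESeq2 and with limma, both were lower in hyl1-2 and 1 was lower in snrk2.2/3/6. Of all tested sequences, 74.6%, 76.3% and 76.3% were lower in hyl1-2 in the same order. In snrk2.2/3/6 these shares were 16.9%, 6.78% and 10.2%. miR390a-5p/miR390b-5p had 13 and 9 reads in hyl1-2, 15 and 8 in snrk2.2/3/6, and 38 and 34 in WT. Its log2 fold change was -1.92 in hyl1-2 (adjusted p = 0.0538) and -1.66 in snrk2.2/3/6 (adjusted p = 0.334) against WT by edgeR. miR164a/miR164b-5p had 23 and 9 reads in hyl1-2, 8 and 10 in snrk2.2/3/6, and 60 and 37 in WT, with log2 fold changes of -1.82 (adjusted p = 0.0538) and -2.42 (adjusted p = 0.141) by edgeR in hyl1-2 and snrk2.2/3/6. For each of the 2 the mutant libraries all lay under those of WT, an order that 88.1% of all tested sequences had in hyl1-2 and 52.5% in snrk2.2/3/6.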

How the data were processed

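Small RNA of 6 libraries, 2 of each of 3 genotypes grouped by the sample titles and genotype labels, was analysed. After Illumina sequencing and adaptor trimming, the authors retained lengths of 18 to 30 nt, matched the reads to TAIR10 and counted those equal to a sequence of miRBase release 21. The deposited counts are whole reads. The deposited RPTM signal is the count per 10000000 genome-matched reads, from which each library total was recovered. The mapping tool is not given in the sources used here. The replicates of each genotype differed beyond sampling noise, so each library counted as 1 replicate.

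Counts were tested with edgeR 4.0.16 (glmQLFit, glmQLFTest, R 4.3.3) over all 6 libraries, with genotype alone in the model, a mean of at least 10 reads, no TMM factors and Benjamini-Hochberg adjustment at 0.05. The standard error was taken as the absolute log2 fold change over the root of the F statistic. Alternatives used TMM factors, total miRNA reads, DESeq2 1.42.0, limma 3.58.1 with a pseudocount of 1, no filter, fits of the genotypes compared, a replicate block, and each library left out in turn. Shares used an exact permutation test, in scipy 1.17.1 under Python 3.11.15, with 95% Wilson intervals. Every entry of the 3 families with a read is named, those with a mean of at least 10 reads with tests, and further the 3 most similar miRNAs per family and the tested entries of the fixed auxin list. The families and lists were chosen with earlier results of these data known.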

Additional observations from a re-analysis of the deposited data

How the results depend on the processing

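With TMM factors or total miRNA reads as library size, 0 sequences were lower and 1, miR393b-3p, was higher in hyl1-2 against WT, 0 family totals were lower, 1 sequence, miR167a-5p/b, was higher in snrk2.2/3/6 against WT, and 1, miR393b-3p, was higher in hyl1-2 against snrk2.2/3/6, where 0 family totals were lower and 0 sequences were lower with TMM factors. The log2 fold changes that turned, with TMM factors and then with total miRNA reads, were in hyl1-2 against WT those of miR160a-5p/b/c-5p (0.68, 0.26), miR167a-5p/b (0.89, 0.59), miR167d (0.49, 0.17) and the miR160 (0.34, 0.22) and miR167 totals (0.57, 0.49), and in hyl1-2 against snrk2.2/3/6 those of miR160a-5p/b/c-5p (1.13, 0.80), miR167d (0.73, 0.49), miR393b-3p (2.00, 1.74) and the miR160 (0.80, 0.80) and miR393 totals (1.63, 1.64), of which miR393b-3p and the miR393 total passed the threshold in both. Without a filter on low counts edgeR called 0 sequences and 0 family totals lower in hyl1-2 against WT or snrk2.2/3/6; the cause was not tested. DESeq2, limma and the fit of hyl1-2 and WT alone each gave 2 family totals lower in hyl1-2 against WT, DESeq2 and limma 2 sequences lower in hyl1-2 against snrk2.2/3/6, and the fit of those genotypes alone 0 family totals. With limma miR393b-3p was at -0.078 in snrk2.2/3/6 against WT and at 0.29 in hyl1-2 against snrk2.2/3/6, and the miR393 total there at 0.17. The replicate numbers of the titles name no shared batch, and the deviations of same-numbered libraries correlated at 0.29 (hyl1-2 and WT), -0.30 (snrk2.2/3/6 and WT) and -0.18 (hyl1-2 and snrk2.2/3/6) over 59 sequences. With the replicate block 2 family totals were lower in hyl1-2 against WT and 2 sequences in hyl1-2 against snrk2.2/3/6, where miR393b-3p was at 0.11 and the miR393 total at 0.0030. With a crossed replicate block, added after the data were seen, 0 family totals were lower in hyl1-2 against snrk2.2/3/6, where miR393b-3p was at 0.15 and the miR393 total at 0.040. Leaving out 1 library at a time gave 0 to 4 sequences lower and 0 to 2 family totals lower in hyl1-2 against WT, 0 to 1 sequence lower in snrk2.2/3/6 against WT, and 0 to 2 sequences lower, 0 to 1 higher and 0 to 1 family total lower in hyl1-2 against snrk2.2/3/6. For all tested sequences and families, calls were not counted without a filter, with a replicate block or with a library left out. Nor were they counted in the fits of the genotypes compared. For all family totals, calls were also not counted with TMM factors or total miRNA reads in any comparison. In the hyl1-2 comparisons they were not counted with DESeq2 or limma either. Changes of the counts under these settings therefore cannot be taken as a property of these families. Log2 fold changes that changed sign on leaving out a library, each without snrk2.2/3/6 replicate 1, ranged in snrk2.2/3/6 against WT from -0.24 to 0.81 for miR167a-5p/b, -1.27 to 1.10 for miR393b-3p, -0.33 to 0.68 for the miR167 total and -1.11 to 1.14 for the miR393 total, and in hyl1-2 against snrk2.2/3/6 from -0.88 to 1.49 for miR393b-3p and -0.95 to 1.31 for the miR393 total. Without entries of under 10 reads over the 6 libraries, miR160a-3p (3 reads) and miR160c-3p (7 reads) drop out. The 5p share of miR160 is then 100% by construction in every genotype. With log2(RPTM + 5) 1 of the 3 most similar miRNAs was shared with the list given for miR167a-5p/b and 1 for miR393b-3p. miR160a-5p/b/c-5p, miR167d and miR167a-3p rest on 0 to 26 reads per hyl1-2 library.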
